A study of Mus musculus with 6 samples.

Results

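The genes described here are 10 amino acid transporters: Slc7a5, Slc3a2, Slc7a11, Slc7a8, Slc7a6, Slc7a7, Slc38a2, Slc1a4, Slc1a5 and Slc43a2. They were chosen by name as a family, at a time when the genotype differences of these data were known, and all 10 had a row among the 16111 named genes of the deposited table. Their genotype differences are therefore a description of the members and support nothing beyond them. The cells were macrophages grown from livers of mouse fetuses at E13.5 (embryonic day), in 3 wild-type (WT) cultures and 3 cultures lacking Ahrr, the repressor of the aryl hydrocarbon receptor (written AhRR-/- in the labels). Strain (C57BL/6 RCC), RPMI medium with serum, glutamine and 2% GM-CSF, 5 weeks of culture and the harvest of non-adherent cells were common to both groups. The labels number the mice 1 to 3 in each genotype and do not say whether a culture pooled fetuses or how the allele was made, so p-values measure the spread between these cultures.

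Amino acids cross the plasma membrane through exchangers, sodium-coupled carriers and facilitative carriers. The exchangers of the Slc7 family named here are light chains that reach the cell surface only when bound to the heavy chain encoded by Slc3a2, also known as CD98. Slc7a5 (LAT1) and Slc7a8 (LAT2) exchange large neutral amino acids such as leucine and tryptophan, and Slc7a11 (xCT) takes up cystine in exchange for glutamate. In macrophages, as in other cells, these carriers supply protein synthesis, leucine sensing by the mTORC1 kinase and glutathione synthesis, and ATF4, a transcription factor made under amino acid shortage, is known to induce several of them.

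The promoter of Slc7a11 is shown because it held a pair of copies of the core of the amino acid response element, the sequence to which ATF4 dimers bind, searched as TGATGCAA on both strands. That of Slc38a2 is shown beside it because it held the core of the antioxidant response element, searched as TGACNNNGC on both strands. Both stretches are 60 bases upstream of the RefSeq start (GRCm38.p6), written on the strand of the gene (minus), with the matches in capitals. They lie at chr3:50443634-50443693 for Slc7a11 and chr15:96699739-96699798 for Slc38a2.
Slc7a11: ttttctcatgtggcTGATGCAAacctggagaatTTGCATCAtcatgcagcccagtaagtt
Slc38a2: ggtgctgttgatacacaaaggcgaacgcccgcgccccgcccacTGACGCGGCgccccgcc

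The matches in Slc7a11 began 66 and 47 bases upstream of the start and had opposite orientations. Of 32851 promoter windows of 250 upstream bases in the RefSeq table, 260 (0.791%) held TGATGCAA at least once and 2 held it more than once. Among the members, 8 had a promoter window, with 14 windows in all, and TGATGCAA was found in those of Slc7a11 and Slc7a7. TGACNNNGC was found in Slc7a6 and Slc38a2, against 10.2% of all windows. GCGTG, the core of the AhR response element, was found in Slc7a6, Slc1a4 and Slc43a2, against 28.2% of all windows. The shares are per window, while a member was counted if any of its windows held a match, so the 2 are not on the same footing. Slc7a6 and Slc43a2 had 2 windows each and Slc7a7 had 5. Slc7a5 and Slc1a5 were not in the promoter table. A match describes letters in a window and was not tested as a site.

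Depth differed 11.72-fold between the libraries, from 3556106 counts in Ahrr-deficient replicate 1 to 41668336 in Ahrr-deficient replicate 2, and the floor of 3 counts lay between 0.072 and 0.844 counts per 1000000 counts of the library (CPM). WT replicate 2 carried 5.28% of its counts on the ribosomal RNA gene CT010467.1, against at most 0.0679% elsewhere. Ahrr itself was at 4.60, 4.29 and 5.32 CPM in the WT libraries and at 2.25, 2.57 and 1.21 CPM in the Ahrr-deficient libraries, so some reads of the targeted gene were left. All 12 listed macrophage markers had a row, with a summed level of 57283 to 64135 CPM in WT and 49018 to 58523 CPM in Ahrr-deficient libraries, most of it from Chil3 and Lyz2. Of these markers 2 were called lower, Cd14 (log2 fold change -1.66, adjusted p by edgeR 0.00329) and Csf1r (-0.65, adjusted p by edgeR 0.0304), and 10 were not called. The listed markers of mast cells and basophils had no row (0 of 8), and those of lymphocytes (1 of 8) and neutrophils (2 of 8) summed to at most 0.303 and 2.38 CPM. Genes on the other lists differed between the genotypes as well. The summed level was 158 to 186 CPM in WT and 89.7 to 120 CPM in Ahrr-deficient libraries for hepatocyte markers (3 of 8, nearly all Trf). It was 24.0 to 29.1 and 37.4 to 52.5 CPM for erythroid markers (3 of 8, nearly all Tfrc), 57.6 to 62.1 and 72.0 to 93.2 CPM for dendritic cell markers (3 of 7, mostly Clec9a) and 165 to 212 and 221 to 322 CPM for megakaryocyte markers (2 of 6, mostly Vwf). For eosinophil markers (2 of 5, mostly Siglecf) it was 30.0 to 62.8 and 55.4 to 65.0 CPM, and for stromal and endothelial markers (4 of 8, mostly Pdgfra) 3.50 to 10.5 and 1.82 to 4.50 CPM. Within these lists single markers also went opposite ways. Vwf and Clec9a were called higher (log2 fold change 0.56 and 0.49, adjusted p by edgeR 0.0264 and 0.0256). Itga2b of the megakaryocyte list and Ear1 of the eosinophil list were called lower (-1.10 and -1.44, adjusted p by edgeR 0.0147 and 0.0173). Trf was called lower as well (-0.75, adjusted p by edgeR 0.00618) and Tfrc higher (0.71, adjusted p by edgeR 0.00645), each the only tested gene of its list. Zbtb46 of the dendritic cell list (-0.32) and Siglecf (0.39) were not called (adjusted p by edgeR 0.228 and 0.196). The defining genes Alb, Hba-a1, Hbb-bs, Epx, Flt3, Pf4 and Col1a1 had no row, and the part of these markers in the results was not tested. In bulk RNA, fewer cells with a transcript and less of it in each cell cannot be told apart.

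Of the 10 members, 9 had enough counts to be tested and 1, Slc1a4, did not. In the edgeR quasi-likelihood fit over all 11408 tested genes, 4 members were called higher in Ahrr-deficient cells (Slc7a5, Slc7a11, Slc38a2 and Slc1a5) and 1 lower (Slc43a2) at a Benjamini-Hochberg adjusted p under 0.05, and 4 were not called. Over all tested genes 19.6% were called, 9.62% as higher and 9.95% as lower. The 3 libraries of each genotype did not overlap in CPM for 5 of the 9 members, the same 5 genes, against 36.6% of all tested genes. The median log2 fold change was 0.30 over the 9 members and 0.01 over all tested genes. Leaving out 1 library changed the number of members called, to 1 without WT replicate 1, 2 without WT replicate 2, 2 without WT replicate 3, 6 without Ahrr-deficient replicate 1, 3 without Ahrr-deficient replicate 2 and 2 without Ahrr-deficient replicate 3. Calls over all tested genes changed as well, from 2232 to 694, 965, 1107, 3857, 948 and 1175 in the same order. The counts of the other lists with a library left out, given below, are to be read beside these.

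**Figure D1:**
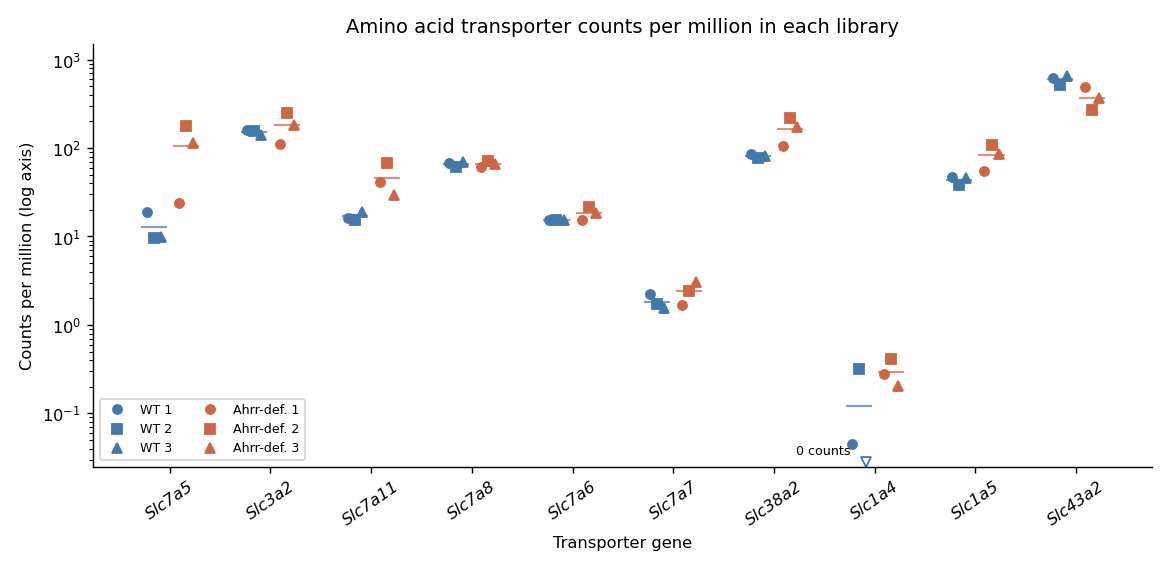
CPM (log axis) of the 10 transporter genes in each library, with WT in blue, Ahrr-deficient (Ahrr-def.) in orange, a marker shape per replicate number and a line at each group mean; the open triangle marks the library with 0 counts of Slc1a4. Slc7a5 spans 9.52 to 18.9 CPM in WT and 24.2 to 179 CPM in Ahrr-deficient libraries, while Slc43a2 is the only tested member whose Ahrr-deficient values all lie below those of WT.

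Slc3a2 (ENSMUSG00000010095.13, chromosome 19, 8706882 to 8723369, minus strand, GRCm38), the heavy chain, was at 159, 155 and 141 CPM in WT replicates 1, 2 and 3 and at 112, 252 and 184 CPM in replicates 1, 2 and 3 of the Ahrr-deficient group. The groups overlapped: Ahrr-deficient replicate 1 was below every WT library, and replicates 2 and 3 were above them all. The mean was 151 ± 9.6 CPM in WT and 182 ± 70 CPM in Ahrr-deficient cells (SD, n = 3 each), a log2 fold change of 0.20 (SE 0.23, adjusted p by edgeR 0.558). This value rested on which Ahrr-deficient library was kept. Without Ahrr-deficient replicate 1 it was 0.43 (adjusted p by edgeR 0.0380), and without Ahrr-deficient replicate 2 it was -0.10 (adjusted p by edgeR 0.776).

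Among the light chains, Slc7a5 (ENSMUSG00000040010.10, chromosome 8, 121881150 to 121907694, minus strand) had 415, 60 and 70 counts in WT replicates 1, 2 and 3, or 18.9, 9.52 and 9.81 CPM. In Ahrr-deficient replicates 1, 2 and 3 it had 86, 7473 and 1127 counts, or 24.2, 179 and 114 CPM. Every Ahrr-deficient library was above every WT library, but replicate 1 was much nearer to WT replicate 1 than to the other Ahrr-deficient libraries. The log2 fold change was 2.95 (SE 0.57, adjusted p by edgeR 0.00979), the largest of the 9 tested members. It stayed between 2.35 and 3.40 when each library was left out, with adjusted p by edgeR from 1.48e-04 to 0.0459. The lowest value was that without Ahrr-deficient replicate 2. The Ahrr-deficient libraries spread 7.42-fold for Slc7a5, wider than for any other tested member.

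Slc7a8 (ENSMUSG00000022180.7, chromosome 14, 54722209 to 54781946, minus strand), whose protein carries much the same large neutral amino acids as that of Slc7a5, was at 67.2, 61.6 and 68.9 CPM in WT and at 61.6, 71.0 and 66.4 CPM in replicates 1, 2 and 3 of the Ahrr-deficient group. In CPM the ranges coincided almost fully. After TMM scaling, as log2 CPM minus the WT mean, WT lay between -0.01 and 0.01. Ahrr-deficient replicates 1, 2 and 3 were then at -0.15, 0.01 and -0.07. The group means were 65.9 ± 3.9 and 66.3 ± 4.7 CPM (SD, n = 3 each) and the log2 fold change was -0.06 (SE 0.08, adjusted p by edgeR 0.646). Slc7a8 had the narrowest spread of the tested members among the Ahrr-deficient libraries, 1.15-fold.

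Slc7a11 (ENSMUSG00000027737.10, chromosome 3, 49892526 to 50443614, minus strand), the cystine and glutamate exchanger whose promoter is printed above, was at 16.2, 15.6 and 18.9 CPM in WT and at 41.3, 67.3 and 29.2 CPM in replicates 1, 2 and 3 of the Ahrr-deficient group. All Ahrr-deficient values exceeded the WT range, and here replicate 3, not replicate 1, was the lowest of them. The mean rose from 16.9 ± 1.8 to 46.0 ± 19.5 CPM (SD, n = 3 each), a log2 fold change of 1.42 (SE 0.27, adjusted p by edgeR 0.00915). The call was lost without WT replicate 1 (1.35, adjusted p by edgeR 0.0501), and the smallest value, 0.96 (adjusted p by edgeR 0.0154), came without Ahrr-deficient replicate 2.

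Slc7a6 and Slc7a7 encode the y+LAT light chains, which exchange cationic for neutral amino acids. Slc7a6 (ENSMUSG00000031904.5, chromosome 8, 106168857 to 106198706, plus strand) lay between 15.3 and 15.4 CPM in the 3 WT libraries and at 15.2, 21.7 and 18.5 CPM in replicates 1, 2 and 3 of the Ahrr-deficient group. In CPM, replicate 1 was just under the WT values and the other 2 libraries were above them. After TMM scaling, as log2 CPM minus the WT mean, replicate 1 (-0.07) lay within the WT values of -0.08 to 0.11. The log2 fold change of Slc7a6 was 0.25 (SE 0.13, adjusted p by edgeR 0.216). Slc7a7 (ENSMUSG00000000958.10, chromosome 14, 54369442 to 54417780, minus strand) was low in every library, with 6 to 102 counts, at 2.23, 1.75 and 1.54 CPM in WT and 1.69, 2.45 and 3.03 CPM in replicates 1, 2 and 3 of the Ahrr-deficient group. The groups overlapped and the log2 fold change was 0.30 (SE 0.26, adjusted p by edgeR 0.436). An exon of Oxa1l overlaps Slc7a7 on the opposite strand, and whether reads were assigned by strand is not given in the sources used here, so that reads of such overlapping pairs cannot be told apart.

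Levels of the chains were compared per length, as CPM per kilobase of annotated exon. In the 3 WT libraries Slc7a8 led the 5 light chains with 56.6% to 63.8% of their summed level, and Slc7a5 made up 12.3% to 21.5%. In Ahrr-deficient replicates 2 and 3 Slc7a5 led with 66.4% and 60.2%, and Slc7a8 made up 19.5% and 26.0%. In Ahrr-deficient replicate 1 Slc7a8 led as in WT, but with 48.0%, below the WT range, while Slc7a5 made up 25.4%, above the WT range. The summed light chains reached 0.453 to 0.542 of the Slc3a2 level in WT and 0.808, 1.02 and 0.982 of it in Ahrr-deficient replicates 1, 2 and 3. So the ratio of light to heavy chain transcripts did not overlap between the genotypes, although Slc3a2 itself did. The ratio was high in different ways. In Ahrr-deficient replicate 1 Slc3a2 was at 31.7 CPM per kilobase, below the 39.8 to 45.0 of WT. The light chain sum there was 25.6, against 19.9 to 23.7 in WT. In replicates 2 and 3 Slc3a2 was above WT, at 71.4 and 52.0, and the sum was 72.9 and 51.1. With the longest protein-coding transcript as the length of each gene the same chains led, and the ratio was 0.442 to 0.530 in WT and 0.785 to 0.922 in Ahrr-deficient libraries. With the median transcript length, 691 bases for Slc7a6 against 3750 for its longest transcript, Slc7a6 led in WT and in Ahrr-deficient replicate 1 and Slc7a5 in the other 2 libraries, and the ratio was 0.188 to 0.217 and 0.295 to 0.309.

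**Figure D2:**
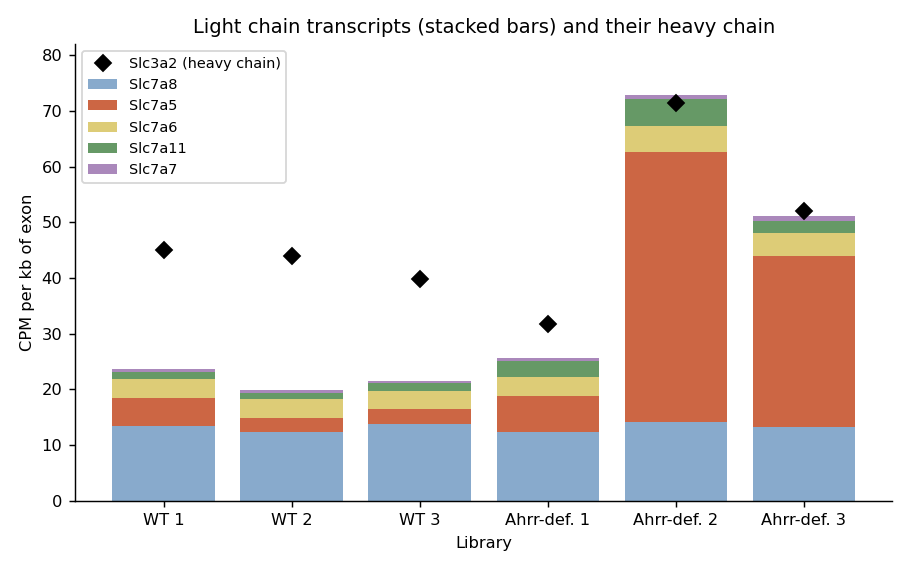
CPM per kilobase of exon of the 5 light chain genes, stacked, and of the heavy chain gene Slc3a2 (diamonds) in each of the 6 libraries. The Slc7a5 segment is the largest in Ahrr-deficient replicates 2 and 3, at 66.4% and 60.2% of the bar, and the diamonds stand far above the bars in the WT libraries only.

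The sodium-coupled carriers were Slc38a2, Slc1a5 and Slc1a4. Slc38a2 (ENSMUSG00000022462.6, chromosome 15, 96687392 to 96699730, minus strand) encodes SNAT2, which takes up small neutral amino acids, and was at 85.1, 78.1 and 81.1 CPM in WT and at 104, 217 and 175 CPM in replicates 1, 2 and 3 of the Ahrr-deficient group. All Ahrr-deficient values lay above the narrow WT range, with replicate 1 the closest to it. The mean rose from 81.5 ± 3.5 to 165 ± 57 CPM (SD, n = 3 each), a log2 fold change of 0.96 (SE 0.21, adjusted p by edgeR 0.0149). The call was lost by a small margin without WT replicate 1, 2 or 3 or Ahrr-deficient replicate 3, at adjusted p by edgeR from 0.0547 to 0.0608, while the log2 fold change over all 6 such fits ran from 0.72 to 1.17.

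Slc1a5 (ENSMUSG00000001918.17, chromosome 7, 16781340 to 16798274, plus strand) encodes ASCT2, a sodium-dependent exchanger known as a route for glutamine, and was at 47.3, 38.1 and 46.1 CPM in WT and at 54.3, 108 and 86.2 CPM in replicates 1, 2 and 3 of the Ahrr-deficient group. The groups did not overlap and replicate 1 was again the lowest of the Ahrr-deficient libraries. The mean rose from 43.8 ± 5.0 to 82.7 ± 26.8 CPM (SD, n = 3 each), a log2 fold change of 0.87 (SE 0.19, adjusted p by edgeR 0.0170). The fit without Ahrr-deficient replicate 1 kept the call, at 1.05 (adjusted p by edgeR 3.39e-04). The fits without WT replicate 1, 2 or 3 or Ahrr-deficient replicate 2 or 3 each lost it, at 0.64 to 0.91 (adjusted p by edgeR 0.0549 to 0.0668).

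Slc1a4 (ENSMUSG00000020142.12, chromosome 11, 20302180 to 20332713, minus strand) encodes the related carrier ASCT1 for alanine, serine and cysteine. It had 1, 2 and 0 counts in WT and 1, 17 and 2 counts in replicates 1, 2 and 3 of the Ahrr-deficient group. Only Ahrr-deficient replicate 2, the deepest library, was above the floor of 3 counts, so a genotype difference was not detectable at this depth.

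Slc43a2 (ENSMUSG00000038178.16, chromosome 11, 75531694 to 75577575, plus strand) encodes LAT4, a facilitative carrier of branched-chain and other large neutral amino acids that works without exchange or sodium. It was at 624, 516 and 647 CPM in WT and at 484, 266 and 364 CPM in replicates 1, 2 and 3 of the Ahrr-deficient group. All Ahrr-deficient values were below the WT range, and the order of the Ahrr-deficient libraries was the reverse of that seen for Slc7a5, with replicate 1 the highest and replicate 2 the lowest. The mean fell from 596 ± 70 to 371 ± 109 CPM (SD, n = 3 each), a log2 fold change of -0.75 (SE 0.20, adjusted p by edgeR 0.0300). The call was kept without Ahrr-deficient replicate 1, at -1.01 (adjusted p by edgeR 0.00160). It was lost without WT replicate 1, 2 or 3 or Ahrr-deficient replicate 2 or 3, at -0.80 to -0.56 (adjusted p by edgeR 0.0580 to 0.0993). An exon of Gm45606 likewise overlaps Slc43a2 on the opposite strand.

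**Figure D3:**
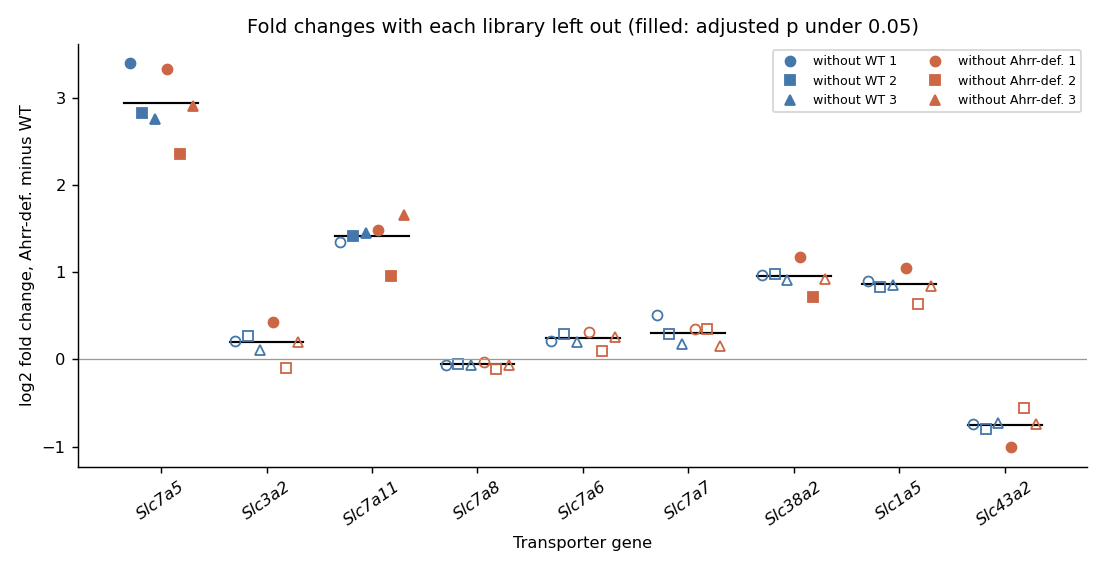
Log2 fold change (Ahrr-deficient minus WT) of the 9 tested transporters with all 6 libraries (black line) and with each library left out (markers, filled where the adjusted p by edgeR is under 0.05). Slc7a5 keeps filled markers throughout, from 2.35 to 3.40, while Slc3a2 ranges from -0.10 to 0.43 and Slc1a5 and Slc43a2 have a filled marker only without Ahrr-deficient replicate 1.

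By level per length, Slc43a2 (59.3 ± 7.0 CPM per kilobase, SD, n = 3) and Slc3a2 (42.9 ± 2.7) stood at the top of the members in WT cells. They were followed by Slc7a8 (13.2 ± 0.8), Slc1a5 (10.5 ± 1.2), Slc38a2 (9.22 ± 0.40), Slc7a5 (3.44 ± 1.44), Slc7a6 (3.36 ± 0.02), Slc7a11 (1.21 ± 0.13), Slc7a7 (0.555 ± 0.107) and Slc1a4 (0.031 ± 0.044). Only the neighbours Slc1a5 and Slc38a2, and Slc7a5 and Slc7a6, had overlapping libraries. In Ahrr-deficient cells Slc3a2 (51.7 ± 19.8) came first, then Slc43a2 (37.0 ± 10.9) and Slc7a5 (28.5 ± 21). The libraries of each neighbouring pair from Slc3a2 down to Slc7a8 overlapped there, but all values of Slc3a2 and of Slc43a2 lay above those of Slc1a5, Slc38a2 and Slc7a8. By group mean, Slc7a5 stood above 53.9% of 16094 genes with a length in WT and above 90.6% of them in Ahrr-deficient cells. The latter mean came mostly from replicates 2 and 3, at 48.4 and 30.7 CPM per kilobase. Ahrr-deficient replicate 1 was at 6.52, nearer to the 2.57 to 5.10 of WT.

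The Ahrr-deficient libraries differed among themselves in the same way for most members. Of the 9 tested members, 7 were highest in Ahrr-deficient replicate 2, and 7, not all the same genes, were lowest in replicate 1, which was also the library with the fewest counts. The share of all tested genes with this order was not computed, so the order is not shown to be particular to the members. The part of depth in this order was not tested. With all libraries thinned to the smallest total, the same number of members, 5, was called, and Slc7a5 had a log2 fold change of 3.11 (adjusted p by edgeR 0.00835).

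**Figure D4:**
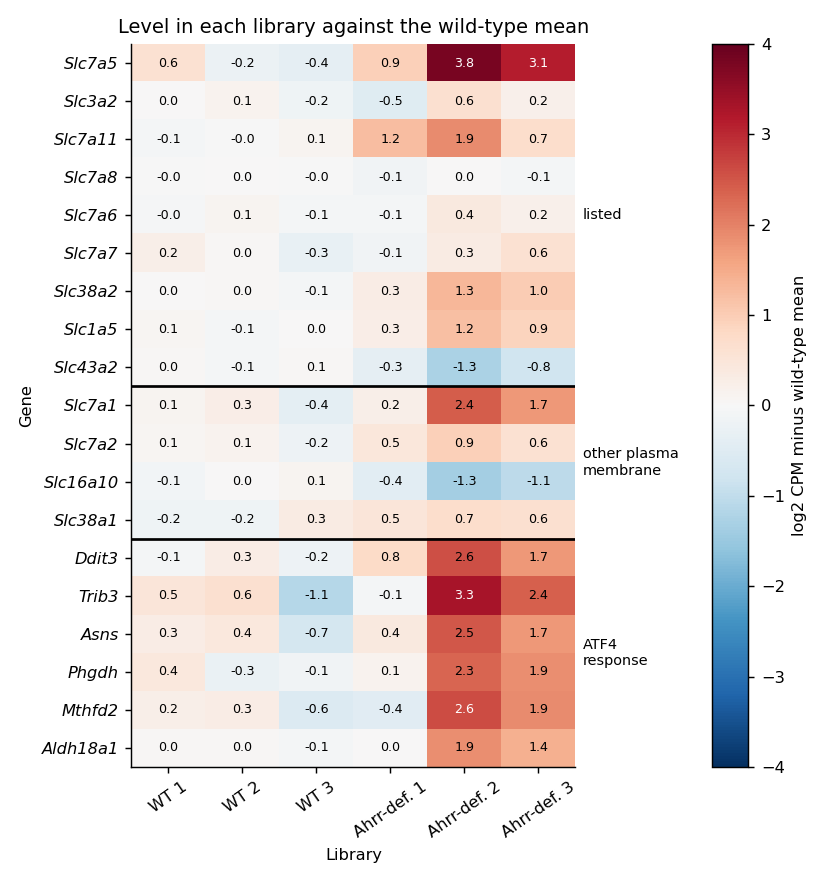
Log2 CPM minus the WT mean (prior count of 2) in each library, for the 9 tested transporters, the 4 other plasma membrane transporters that were called and 6 called genes of the ATF4 response. Ahrr-deficient replicate 1 is at 0.9 for Slc7a5, against 3.8 and 3.1 in replicates 2 and 3, and is close to the WT values for most of the ATF4 genes.

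By a fixed rule, the genes whose pattern over the 6 libraries was most like that of Slc7a5 were named from 10033 genes with a mean of at least 50 counts. They were Atp5f1, Ralgds, Rnh1, Derl1 and Klhdc4, with Pearson correlations of log2 CPM between 0.995 and 0.998, and the most opposite were Nedd9, Gbgt1, Stard9, Cpt2 and Ppfibp2, between -0.998 and -0.996. Slc1a5 (0.988) was 31st and Slc38a2 (0.984) 51st in this order, ahead of Slc7a6 (0.82), Slc7a11 (0.78) and Slc3a2 (0.66). Slc43a2 was at -0.96 and Slc7a8 at -0.07. These correlations span 2 genotypes and share the libraries and their depths, so they describe likeness and carry no test. They do not take in the size of a change. Atp5f1 (log2 fold change 0.23), Nedd9 (-0.23) and Cpt2 (-0.31) were not called (adjusted p by edgeR 0.0858, 0.0818 and 0.0745). Ralgds, Rnh1, Derl1, Klhdc4, Gbgt1, Stard9 and Ppfibp2 were called. The changes of the most like genes reached 0.97, for Klhdc4, against 2.95 for Slc7a5.

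The other plasma membrane amino acid transporters were taken from a list of 36 genes, of which 10 had a row and 5 were tested. Of these, 3 were higher, 1 was lower and 1, the taurine carrier gene Slc6a6 (log2 fold change -0.28, adjusted p by edgeR 0.111), was not called, against 19.6% called over all tested genes. Slc7a1, a carrier of cationic amino acids, rose from 25.2 ± 4.5 to 86.8 ± 56.5 CPM (log2 fold change 1.76, SE 0.42, adjusted p by edgeR 0.0219). Its relative Slc7a2 rose from 1708 ± 146 to 2891 ± 551 CPM (0.68, SE 0.16, adjusted p by edgeR 0.0194; an exon of Gm26584 overlaps it on the opposite strand), and Slc38a1, a relative of Slc38a2, rose by 0.62 (SE 0.15, adjusted p by edgeR 0.0211). Slc16a10, a facilitative carrier of aromatic amino acids, fell by 0.93 on the log2 scale (SE 0.20, adjusted p by edgeR 0.0150). Calls in this list dropped to 1 without WT replicate 1, 2 or 3 or Ahrr-deficient replicate 2 and to 0 without Ahrr-deficient replicate 3. Of 11 tested lysosomal and other intracellular transporters, Slc36a4 was higher (0.42, SE 0.10, adjusted p by edgeR 0.0212), Slc15a3 was lower (-0.92, SE 0.12, adjusted p by edgeR 0.00252) and 9 were not called, which is near the 19.6% called over all tested genes. Calls there were 1 without WT replicate 1, 2 or 3 or Ahrr-deficient replicate 2 and 4 without Ahrr-deficient replicate 1.

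**Figure D5:**
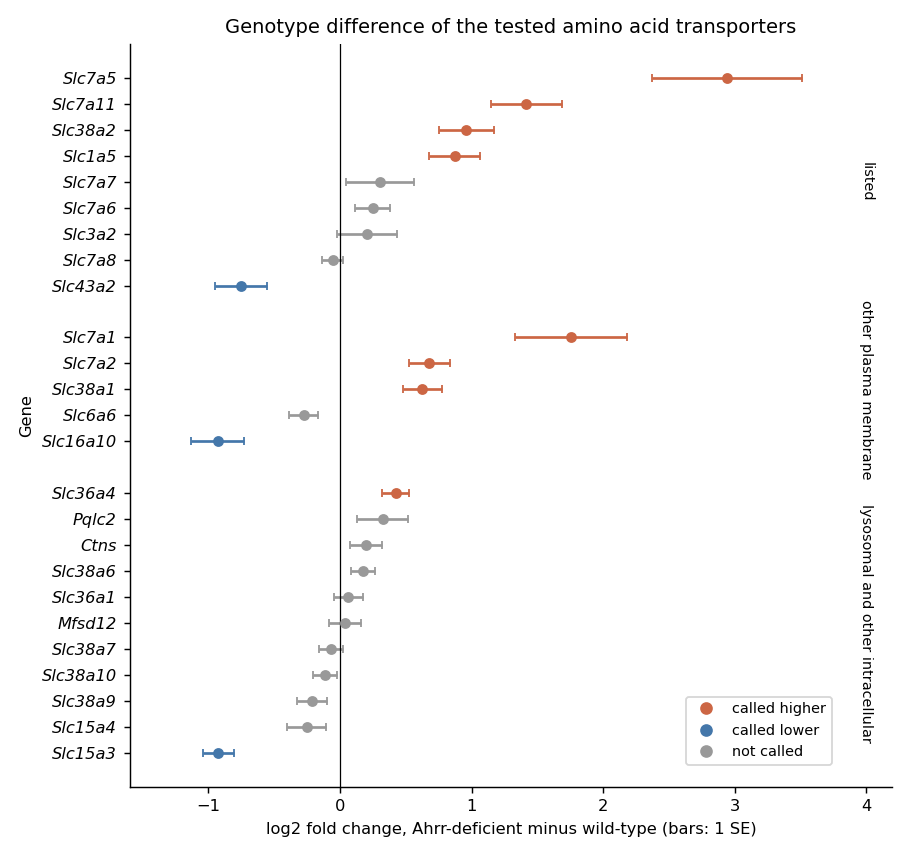
Log2 fold change with 1 SE (Ahrr-deficient minus WT) for the tested genes of the 10 listed transporters, of the other plasma membrane transporters and of the lysosomal and other intracellular transporters; colour shows the edgeR call. The changes at the plasma membrane run from -0.93 for Slc16a10 to 2.95 for Slc7a5, and 9 of the 11 intracellular genes were not called.

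Genes of the amino acid response through ATF4 were compared because several members are among its known targets. Of 20 tested genes of this list, 9 were higher, 2 lower (Atf3 and Ddit4) and 9 not called, with a median log2 fold change of 0.77. Over all tested genes 9.62% were called higher and 9.95% lower, with a median of 0.01. The groups did not overlap in CPM for 6 of the 20 genes, against 36.6% of all tested genes. Atf4 rose by 1.08 (SE 0.32, adjusted p by edgeR 0.0424), the asparagine synthetase gene Asns by 1.76 (SE 0.44, adjusted p by edgeR 0.0245) and Trib3 by 2.33 (SE 0.63, adjusted p by edgeR 0.0338). In all 9 higher genes Ahrr-deficient replicate 1 was the lowest and replicate 2 the highest library of the genotype, and in 5 of them replicate 1 did not exceed the WT range, which happened for none (0) of the 4 members called higher. Other lists shared much of this order. Among their genes called higher, replicate 1 was lowest for 3 of 3 other plasma membrane transporters and 4 of 5 amino acid enzymes. It was lowest for 1 of 2 mTORC1 genes and 0 of 1 lysosomal gene. The share over all genes called higher was not computed. The count of 11 ATF4 list calls was 1 without WT replicate 1, 2 without WT replicate 2, WT replicate 3 or Ahrr-deficient replicate 2, 3 without Ahrr-deficient replicate 3 and 19 without Ahrr-deficient replicate 1. Calls over all tested genes in these fits, in the same order, were 694, 965, 1107, 948, 1175 and 3857, against 2232 with all libraries.

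For the uses of the carried amino acids, 14 genes of cystine and glutathione use and 32 of mTORC1 amino acid sensing were tested. In the first list, Txnrd1 (0.71, SE 0.17, adjusted p by edgeR 0.0211) and Mat2a (0.64, SE 0.09, adjusted p by edgeR 0.00411) were higher, Gsr (-0.53, SE 0.09, adjusted p by edgeR 0.00629) and Ggt5 were lower and 10 were not called, against 19.6% called over all tested genes. Gclc and Gclm, the subunits of the enzyme that starts glutathione synthesis, were among the latter (adjusted p by edgeR 0.0737 and 0.479). The count of 4 was 2 without WT replicate 1 or WT replicate 2. In the second list 2 genes were higher, 5 lower and 25 not called, which is near the 19.6% called over all genes, and the median was 0.03. The higher genes were Lamtor3 (0.38, adjusted p by edgeR 0.0159) and Seh1l (0.46, adjusted p by edgeR 0.0142). Lamtor4 (-0.43), Sesn1 (-0.59) and Wdr24 (-0.36) were among the lower genes (adjusted p by edgeR 0.0221, 0.0279 and 0.0321). The largest change was that of Gatsl3, an arginine sensor also named Castor1, with 12 to 139 counts per library. It fell by 1.97 on the log2 scale (SE 0.31, adjusted p by edgeR 0.00519). The mTORC1 list count of 7 was 1 without WT replicate 1, 4 without WT replicate 2, 3 without WT replicate 3 and 2 without Ahrr-deficient replicate 2. Ahr, the receptor gene, was at 11.0, 33.2 and 24.0 CPM in replicates 1, 2 and 3 of the Ahrr-deficient group, with the same library order as Slc7a5, against 3.64 to 7.66 CPM in WT. It rose by 2.00 on the log2 scale (SE 0.35, adjusted p by edgeR 0.00709). The list of AhR and its targets held 7 genes, of which Cyp1a1, Cyp1a2 and Cyp1b1 had no row. Of the 4 tested genes on it Ahr was the only one called higher, while Ahrr (-1.21, SE 0.26, adjusted p by edgeR 0.0151) and Tiparp, a known AhR target (-0.46, SE 0.12, adjusted p by edgeR 0.0288), were lower and Arnt, the partner of the receptor, was not called (-0.05, adjusted p by edgeR 0.736). So 3 of 4 were called, 1 of them the targeted gene itself, against 19.6% over all tested genes. The count of 3 was 1 without WT replicate 1.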

How the data were processed

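From the authors came a table of raw counts of 53465 features that carries no identifiers, and a deposited table of normalized signal for 16111 named genes. Per the submitters' processing notes the tools were CASAVA 1.8.2, fastp 0.20.0, STAR 2.7.10b, SAMtools 1.16.1, R 4.3.1 and DESeq2 1.40.2, with build mm10; the counting program, annotation and use of strand are not given in the sources used here. The deposited signal was a whole multiple of 1 read in each library (100% of values within 0.001 reads), and the recovered reads equalled the raw counts of the 16111 features with at least 10 counts in total. The tables were ordered differently, so gene names came from the recovered reads; unidentified features held 0.0232% to 0.0511% of counts and stayed in the totals.

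The genotype contrast was fitted to the counts by quasi-likelihood in edgeR 4.0.16 (R 4.3.3, TMM, filterByExpr, no covariate), two-sided, with Benjamini-Hochberg adjustment over 11408 genes and a threshold of 0.05. SE came from the fold change and F statistic. CPM are counts per 1000000 counts of the library. Positions and exon lengths came from GENCODE release 21 (GRCm38, 16094 genes matched), promoters from RefSeq. The scripts were tested on simulated data. Alternatives used limma 3.58.1 and DESeq2 1.42.0; plots used Python 3.11.15 and matplotlib 3.10.9.

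Members and lists were chosen with earlier results of these data known. Named genes were all members, up to 6 called genes per list, those of largest change among genes averaging 50 counts or more, the 5 genes most and least like Slc7a5, and Ahrr. Atf4, Atf3, Ddit4, Slc6a6, Ggt5, Gclc, Gclm, Arg1, Arnt, CT010467.1 and the marker genes were named after their values were seen, as were the promoter motifs and the other gene lengths. Cyp1a1, Cyp1a2 and Cyp1b1 were named as listed genes without a row.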

Additional observations from a re-analysis of the deposited data

How the results depend on the processing

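With 14 alternatives, 250 values were computed again, and in 183 the sign and the call were as reported (for counts, within 1.5 times). The 5 called members kept their calls with RLE scaling, no filter, a mean of at least 50 counts, DESeq2, limma-voom, the replicate block, thinning to the smallest total and removal of the ribosomal RNA gene reads; the cause of the changes below was not tested. The number of genes called, 2232 in the reported fit, was 1390 with the replicate block and 1197 after thinning. It was 694 to 3857 when each library was left out, with 1 to 6 members called. The log2 fold change then ran from -0.10 to 0.43 for Slc3a2, from 0.96 to 1.66 for Slc7a11, from 0.72 to 1.17 for Slc38a2, from 0.64 to 1.05 for Slc1a5 and from -1.01 to -0.56 for Slc43a2. Leaving out a library also lowers the residual degrees of freedom. Slc3a2 was reversed without Ahrr-deficient replicate 2, at -0.10. Deviations of same-numbered libraries had correlations of -0.17, 0.07 and 0.13 across genes, and 1 of 6 libraries was closest to its own number, so the numbers were not taken to pair the libraries; the block with 5 calls changed no member's call. The ATF4 list, with 11 calls, had 18 without a filter, 7 at a mean of at least 50 counts, 4 with DESeq2, 5 with the replicate block and 6 after thinning. Calls over all genes in these fits were 2859, 1967, 1997, 1390 and 1197, against 2232 in the reported fit. The mTORC1 list, with 7, had 3 after thinning, the cystine and glutathione list, with 4, had 7 without a filter, and the list of enzymes, with 7, had 3 with the block and 3 after thinning. The fit without a filter took in features without identifiers and gave very small p-values for many genes, so it is not on the same footing. Slc1a4 gave a value only there (adjusted p by edgeR 0.234), and Slc7a7 gave none at a mean of at least 50 counts or after thinning. Depth limits the low genes Slc1a4 and Slc7a7 most, with 1 and 6 counts in the shallowest library. The 2 other gene lengths were chosen after seeing the data.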

Other observations

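Enzymes that use the carried amino acids were listed beside the transporters. Of 19 tested genes, 5 were higher, 2 lower and 12 not called, against 19.6% called over all genes. Glul, the glutamine synthetase gene, fell from 470 ± 11 to 242 ± 65 CPM (SD, n = 3 each), a log2 fold change of -1.04 (SE 0.18, adjusted p by edgeR 0.00672). Dbt and Bckdha, which encode subunits of the complex that oxidises branched-chain keto acids, moved in opposite directions, at 0.59 (SE 0.10, adjusted p by edgeR 0.00604) and -0.46 (SE 0.12, adjusted p by edgeR 0.0306). Odc1, the first enzyme of polyamine synthesis, rose by 0.56 (SE 0.15, adjusted p by edgeR 0.0284) and Ass1, of arginine synthesis, by 1.23 (SE 0.36, adjusted p by edgeR 0.0446), with the libraries of the groups overlapping for Ass1 and for Bckdha. The count of 7 was 2 without WT replicate 1 and 3 without WT replicate 2, WT replicate 3, Ahrr-deficient replicate 2 or Ahrr-deficient replicate 3. Arg1, the arginase gene, lay between 1629 and 2557 CPM in all 6 libraries and was not called (-0.14, SE 0.20, adjusted p by edgeR 0.657).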
